A study of Homo sapiens with 9 samples.

Results

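Paraspeckles are bodies in the mammalian nucleus that assemble on the long noncoding RNA NEAT1 and hold a set of RNA-binding proteins. RNAs edited from adenosine to inosine can be kept in the nucleus by a complex of the paraspeckle proteins NONO and SFPQ with MATR3. This complex thus acts on RNAs that the ADAR editing enzymes have changed. Whether the RNA levels of the genes described here respond to editing was not tested. The 9 genes described here were taken as a list of names, with no threshold on a measured value: the RNAs NEAT1 and MALAT1, the proteins NONO, SFPQ, PSPC1, RBM14 and MATR3, and the 3′ end processing factors CPSF6 and NUDT21. Each symbol matched a single identifier among the 54562 Ensembl genes of the deposited table, and all 9 were among the 13801 genes tested, those with a mean of at least 1 FPKM. The 9 genes and the lists used further below were chosen with earlier results of these data known. Their shares beside all genes tested are therefore descriptions.

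HEK293, a human embryonic kidney line, was transiently transfected with the empty vector (EV), with a plasmid for the ADARB1 isoform that skips the *Alu* exon (Short) or with a plasmid for the isoform that includes it (Long). Poly(A) RNA was taken 48 hours later in 3 cell passages, which gave 3 libraries per group and 9 in all, and every value is a level of the whole transfected culture. Levels are in FPKM, which divides the fragments of a gene by its length in kilobases and by the depth of the library, so that genes can be compared with each other. Groups were compared as log2(FPKM + 1) with limma over all genes tested, with the passage as a block, Benjamini-Hochberg adjustment and a threshold of 0.05. An exact two-sided permutation test of 3 libraries against 3 cannot give a p below 0.1, and one of 3 pairs cannot go below 0.25, so no single gene could pass 0.05 by these tests.

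ADARB1 was higher in every Short and Long library than in every EV library. Its FPKM averaged 8.09 ± 0.479 with the empty vector, 2923 ± 1140 with Short and 2408 ± 922 with Long (SD, n = 3 each), and the gene total does not tell the Short libraries from the Long ones. The number of fragments behind the libraries is not given, but the steps between the lowest FPKM values gave relative depths from 0.993 to 1.21, with EV replicate 1 set to 1. Of 8 genes listed as marking HEK293 cells, the 6 that matched (VIM, NEFM, INA, PAX2, KRT8 and KRT18) had mean levels of 2.47 to 191 FPKM. Of 7 matched markers of other cell types, EPCAM was at 13.2 to 18.3 FPKM, HBB and INS were listed at 0 in the 9 libraries, and PTPRC, CD3E, ALB and MYH6 stayed at or below 0.326 FPKM. The summed level of the 6 HEK293 markers was 457 to 488 FPKM for EV, 486 to 553 FPKM for Short and 511 to 534 FPKM for Long, and that of the 7 other markers was 13.5 to 17.5, 14.6 to 17.9 and 15.4 to 18.4 FPKM. KRT8 alone of these markers passed in Long against EV (log2 difference 0.20, limma adjusted p = 0.0499), and the part of these markers in the differences below was not tested. In these bulk samples, fewer cells of a type and less RNA per cell cannot be told apart.

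NEAT1 (ENSG00000245532) spans 65190245 to 65213011 of chromosome 11 (GRCh37, plus strand), and MALAT1 (ENSG00000251562) follows it on the same strand from 65265111 to 65275544. NEAT1 is made as a short form, which ends at a poly(A) site, and as a long form that runs through that site and carries the paraspeckle. NUDT21 and CPSF6 are subunits of cleavage factor Im, which reads UGUA in RNA and favours the short form. The 200 bases from 65193801 to 65194000, shown because they join the NEAT1 RNA to 2 of the 9 genes, hold the TGTA motif 5 times and the poly(A) signal AATAAA once, at 65193974 to 65193979, before the latest annotated end of the short transcripts at 65193984. Both motifs are in capitals, and both were searched on the RNA strand alone.
NEAT1 short form 3′ end: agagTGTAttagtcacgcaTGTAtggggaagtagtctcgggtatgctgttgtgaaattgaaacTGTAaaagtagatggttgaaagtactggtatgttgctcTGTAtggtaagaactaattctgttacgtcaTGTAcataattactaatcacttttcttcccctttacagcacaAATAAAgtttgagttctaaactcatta
Of the 113 consecutive 200-base windows of the long NEAT1 transcript, 8 (7.08%) held AATAAA, 79 (69.9%) held TGTA and 4 (3.54%) held TGTA at least 5 times. A match describes the sequence and does not show that a factor is bound there.

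The long form of NEAT1 and MALAT1 are not closed by a poly(A) tail. Both end in a genome-encoded A-rich tract with U-rich stretches before it, known to fold into a triple helix. These ends are shown because the libraries were made from poly(A) RNA, in which such transcripts can be captured less fully than mRNA. The last 10 bases of the annotated long NEAT1 transcript, in capitals, occur 2 times in the longest MALAT1 transcript. The later match, from 65273528 to 65273587 with the bases before it, is printed beside the NEAT1 end at 65212952 to 65213011. The annotated MALAT1 gene continues past this match, to 65275544.
NEAT1 long form 3′ end: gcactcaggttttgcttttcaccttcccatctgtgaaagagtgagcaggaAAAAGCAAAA
MALAT1 A-rich tract: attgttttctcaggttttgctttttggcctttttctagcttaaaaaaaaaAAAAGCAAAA
The FPKM of the gene does not separate the forms of NEAT1, and how its fragments were divided by the 22743 nt of the long transcript or by a shorter length is not given.

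In the EV libraries the levels ran from NONO at 393 ± 6.03 FPKM to MALAT1 at 13.4 ± 0.550 FPKM (SD, n = 3 each). Between them came SFPQ (261 ± 25.7 FPKM), MATR3 (196 ± 54.9 FPKM), CPSF6 (56.5 ± 7.73 FPKM), PSPC1 (47.0 ± 5.51 FPKM), NEAT1 (45.8 ± 1.77 FPKM), RBM14 (30.8 ± 1.06 FPKM) and NUDT21 (28.0 ± 5.70 FPKM). Neighbours in this order whose EV libraries overlapped were SFPQ and MATR3, CPSF6 and PSPC1, PSPC1 and NEAT1, and RBM14 and NUDT21. In the Long libraries only CPSF6 and PSPC1 overlapped among these neighbours. NONO was above 98.8% of the genes tested by its mean over the 9 libraries, SFPQ above 98.2%, and MALAT1 above 50.9%. The places of NEAT1 and MALAT1 in this order carry the limit of poly(A) capture given above.

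**Figure D1:**
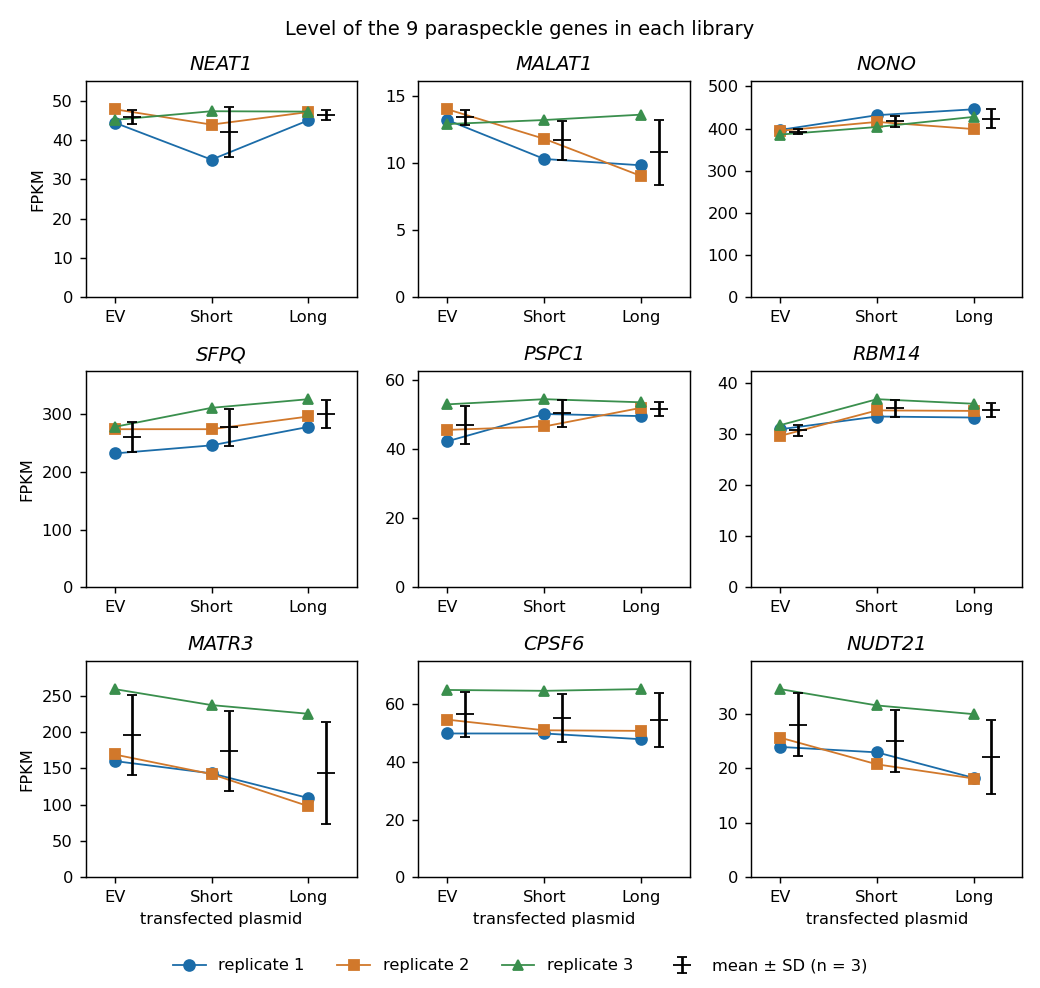
FPKM of each of the 9 genes (vertical axes, from 0) in EV, Short and Long libraries, with 1 line per replicate number (cell passage) and the group mean ± SD (n = 3) in black. MATR3 in Long lies at 109 and 97.8 FPKM in replicates 1 and 2 and at 225 FPKM in replicate 3, while NONO stays between 386 and 446 FPKM in all 9 libraries.

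The first question was whether the Short isoform changed the RNA level of these genes against EV. With limma, 0 of the 9 genes passed, against 0.0362% of all genes tested (0.029% higher and 0.00725% lower), and 2 of the 9 had an unadjusted p under 0.05, RBM14 and NUDT21, against 22.0% of all genes tested. The median log2 difference of the 9 genes was -0.04, against 0.041 for all genes tested. The direction was the same in 3 of 3 passages for 7 of the 9, against 45.3% of all genes tested. Those 7 include SFPQ, which differed by 0.0406% in replicate 2. They also include CPSF6, which differed by -0.0198% in replicate 1 and by -0.497% in replicate 3.

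RBM14, a coactivator whose prion-like region is needed for paraspeckles to form, had the largest difference of the 9 in its size relative to its error. EV replicates 1, 2 and 3 gave 31.0, 29.7 and 31.8 FPKM and the Short replicates 33.5, 34.7 and 36.9 FPKM. All Short libraries were above all EV libraries. The log2 difference was 0.18 (standard error 0.055, limma adjusted p = 0.121). NONO, in the same order of replicates, had 397, 395 and 386 FPKM with EV and 432, 416 and 404 FPKM with Short, again without overlap, with a log2 difference of 0.09 (standard error 0.043, limma adjusted p = 0.262). Groups did not overlap for these 2 genes of the 9, against 13.0% of all genes tested. With TPM, which rescales FPKM to a common sum, the log2 difference was 0.10 for RBM14 and 0.0036 for NONO, and with median ratio scaling it was 0.13 and 0.03.

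NEAT1 had its lowest value of all libraries in Short. The EV replicates gave 44.4, 47.8 and 45.1 FPKM and the Short replicates 35.0, 43.9 and 47.3 FPKM. Short replicate 1 lay far below the rest, replicate 2 just below EV and replicate 3 within EV, so the groups overlapped. The log2 difference was -0.13 (95% interval -0.30 to 0.04, limma adjusted p = 0.336), and it was -0.03 without replicate 1. Among the Short replicates MALAT1 was lowest in replicate 1, with 13.2, 14.0 and 12.9 FPKM for EV and 10.3, 11.8 and 13.2 FPKM for Short (log2 difference -0.18, 95% interval -0.42 to 0.06, limma adjusted p = 0.354). The intervals of the remaining genes were -0.02 to 0.18 for SFPQ, -0.04 to 0.24 for PSPC1, -0.38 to 0.01 for MATR3, and -0.15 to 0.08 for CPSF6. NUDT21 had a log2 difference of -0.16 (standard error 0.072, limma adjusted p = 0.218).

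The same question was asked of the Long isoform. Of the 9 genes 3 passed (33.3%), against 8.32% of all genes tested: SFPQ rose, while MATR3 and NUDT21 fell. An unadjusted p under 0.05 was found for 7 of the 9, against 24.4% of all genes tested. For Short against EV that share of all genes was 22.0%, so the unadjusted shares were much closer than the adjusted ones. Of all genes tested 1.99% rose and 6.33% fell, and with TPM these became 57 genes higher and 1222 lower in place of 275 and 873 (112 and 1131 with median ratio scaling). The median log2 difference of the 9 genes was 0.02, against 0.039 for all genes tested. The direction was the same in 3 of 3 passages for 6 of the 9, against 45.5% of all genes tested. As the genes were chosen with earlier results known, these shares are no test of the set.

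MATR3 (ENSG00000015479, chromosome 5, 138629363 to 138667366, plus strand) encodes matrin 3, an RNA-binding protein of the nuclear matrix. Replicates 1, 2 and 3 gave 160, 169 and 259 FPKM for EV, 143, 142 and 237 FPKM for Short, and 109, 97.8 and 225 FPKM for Long. Replicate 3 was the highest of each group, and the groups overlapped for that reason. Within passages Long differed from EV by -31.8%, -42.0% and -13.1%, and the log2 difference was -0.51 (standard error 0.088, limma adjusted p = 0.0107, lower in 3 of 3 pairs). In Short the same passages were lower than EV in 3 of 3 pairs, with a log2 difference of -0.18 (limma adjusted p = 0.257).

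NUDT21 (ENSG00000167005, chromosome 16, 56463045 to 56486111, minus strand) encodes the subunit of cleavage factor Im that reads UGUA, the motif printed above from NEAT1. Its EV replicates gave 23.9, 25.6 and 34.5 FPKM, those of Short 22.9, 20.7 and 31.5 FPKM, and those of Long 18.2, 18.1 and 29.9 FPKM. As with MATR3, replicate 3 lay above the others in each group. The log2 difference of Long against EV was -0.35 (standard error 0.072, limma adjusted p = 0.0168, lower in 3 of 3 pairs). CPSF6 (ENSG00000111605, chromosome 12, 69633349 to 69668138, plus strand), its partner subunit, had 49.9, 54.7 and 65.0 FPKM with EV and 47.9, 50.8 and 65.3 FPKM with Long. Its log2 difference was -0.05 (95% interval -0.17 to 0.06, limma adjusted p = 0.569), and the groups overlapped almost fully.

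The ratio of NUDT21 to CPSF6, chosen after the values had been seen, compares both subunits within a library. The EV replicates gave 0.479, 0.468 and 0.531, those of Short 0.458, 0.406 and 0.486, and those of Long 0.380, 0.356 and 0.457. The Long ratios lay below every EV ratio, with a mean log2 difference within passages of -0.31 ± 0.09 (SD, n = 3 pairs, exact two-sided paired permutation test, p = 0.25). The Short ratios were also lower in 3 of 3 pairs, by -0.13 ± 0.07 on the log2 scale (SD, n = 3 pairs, same exact test, p = 0.25), and overlapped with EV.

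**Figure D2:**
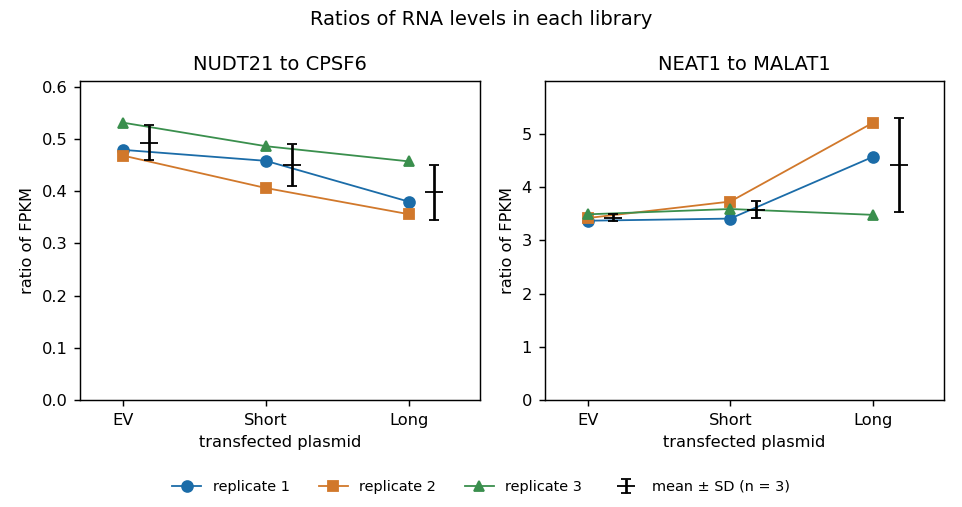
Ratio of FPKM (vertical axes, from 0) of NUDT21 to CPSF6 and of NEAT1 to MALAT1 in each library, with 1 line per replicate number and the group mean ± SD (n = 3) in black. The NUDT21 ratio falls from EV to Short to Long in each replicate, and the NEAT1 ratio in Long is 4.57 and 5.21 in replicates 1 and 2 and 3.48 in replicate 3.

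SFPQ (ENSG00000116560, chromosome 1, 35641979 to 35659047, minus strand), NONO (ENSG00000147140, chromosome X, 70474664 to 70521372, plus strand) and PSPC1 (ENSG00000121390, chromosome 13, 20248892 to 20357159, minus strand) form the DBHS family of RNA-binding proteins, which act as dimers, and of these SFPQ and NONO are needed for paraspeckles to form. For SFPQ the EV replicates gave 232, 274 and 278 FPKM, those of Short 246, 274 and 311 FPKM, and those of Long 278, 296 and 326 FPKM. Long was above EV in each passage, by 20.0%, 8.22% and 17.2%, although EV replicate 3 was as high as the lowest Long value. The log2 difference was 0.20 (standard error 0.046, limma adjusted p = 0.0255).

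NONO was at 446, 399 and 428 FPKM in Long, above every EV library, with a log2 difference of 0.11 (95% interval 0.01 to 0.21, limma adjusted p = 0.151). PSPC1 had 42.3, 45.6 and 53.0 FPKM with EV and 49.6, 52.0 and 53.6 FPKM with Long, higher in 3 of 3 pairs but by 1.05% in replicate 3 (log2 difference 0.14, limma adjusted p = 0.200). RBM14 (ENSG00000239306, chromosome 11, 66384097 to 66397405, plus strand) was at 33.3, 34.6 and 36.0 FPKM in Long, above every EV library (log2 difference 0.17, standard error 0.055, limma adjusted p = 0.0956). Long and EV libraries did not overlap for NONO and RBM14, 2 of the 9 genes, against 13.6% of all genes tested. Their log2 differences were 0.03 and 0.09 with TPM, and 0.07 and 0.12 with median ratio scaling. The read-through gene RBM14-RBM4 starts at the same base as RBM14 and shares its sequence. Its mean FPKM was 41.3 ± 4.60 for EV, 41.4 ± 1.31 for Short and 41.2 ± 2.90 for Long (SD, n = 3 each), and how shared fragments were divided between the 2 genes is not given. On the opposite strand NUDT21 overlaps OGFOD1 (mean 24.9 FPKM over all libraries) and NONO overlaps ZMYM3 (14.7 FPKM). How fragments of these overlaps were divided is not given. TALAM1, opposite MALAT1, has no entry among the deposited values. The same holds for the further protein-coding entries that overlap MATR3 and NUDT21 on their own strand.

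NEAT1 was at 45.0, 47.1 and 47.2 FPKM in Long, within the spread of EV, and its log2 difference was 0.02 (95% interval -0.15 to 0.19, limma adjusted p = 0.901). MALAT1, a nuclear RNA of the splicing speckles, was at 9.83, 9.03 and 13.6 FPKM in Long. Against EV, replicates 1, 2 and 3 differed by -25.3%, -35.4% and 4.97%. The log2 difference was -0.30 (standard error 0.11, limma adjusted p = 0.124, lower in 2 of 3 pairs). Without replicate 3 it was -0.48 and passed (limma adjusted p = 0.0223, with 0.0223 to 0.802 over the 10 alternatives), and without replicate 2 it was -0.16 and did not (0.649). The ratio of NEAT1 to MALAT1 was 3.37, 3.42 and 3.49 in EV and 4.57, 5.21 and 3.48 in Long. The groups overlapped through replicate 3 (mean log2 difference 0.35 ± 0.32, SD, n = 3 pairs, exact two-sided paired permutation test, p = 0.5).

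The 3 calls held with a pseudocount of 0.1 and none held without the passage block, without a filter on low values, without replicate 1, without replicate 2 or after correction for GC content (limma adjusted p after that correction 0.0620 for MATR3, 0.242 for NUDT21 and 0.134 for SFPQ). Over the 10 alternatives the adjusted p ranged from 0.000797 to 0.685 for MATR3, from 0.00686 to 0.684 for NUDT21 and from 0.0267 to 0.650 for SFPQ, and SFPQ passed in 1 of the 10, MATR3 and NUDT21 in 4 each. Beside the losses named, SFPQ missed the threshold with TPM (0.170), with median ratio scaling (0.10) and without replicate 3 (0.107).

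**Figure D3:**
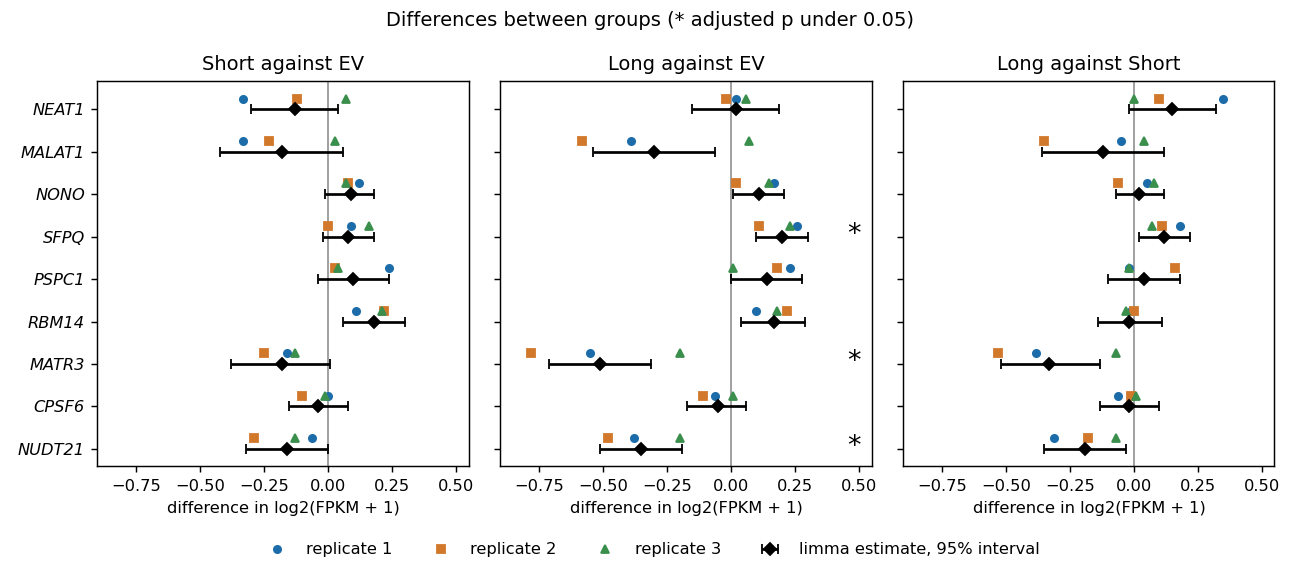
Differences in log2(FPKM + 1) for Short against EV, Long against EV and Long against Short (horizontal axes), with the 3 within-passage differences of each gene as coloured points and the limma estimate with its 95% interval as a black diamond. Stars mark SFPQ, MATR3 and NUDT21 in Long against EV, the genes with an adjusted p under 0.05.

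The direct comparison of the isoforms asked whether any of these genes differed between Long and Short. With limma, 0 of the 9 genes passed, against 0.00725% of all genes tested, and 3 of the 9 had an unadjusted p under 0.05 (MATR3, NUDT21 and SFPQ), against 7.54% of all genes tested. Groups overlapped for all 9 genes, against 3.83% of genes tested without overlap, and the direction was the same in 3 of 3 passages for 4 of the 9, against 28.7%. Those 4 include RBM14, which differed by -0.646%, -0.26% and -2.43%. MATR3 differed between Long and Short by -23.5%, -30.9% and -4.95% within passages, with a log2 difference of -0.33 (95% interval -0.52 to -0.13, limma adjusted p = 0.547). NUDT21 differed by -0.19 (95% interval -0.35 to -0.03, limma adjusted p = 0.597) and SFPQ by 0.12 (95% interval 0.02 to 0.22, limma adjusted p = 0.604). NEAT1 was higher in Long by 28.5% in replicate 1, where its Short value was low, and by 7.32% in replicate 2, and differed by -0.136% in replicate 3 (log2 difference 0.15, 95% interval -0.02 to 0.32, limma adjusted p = 0.711, and 0.05 without replicate 1). The widest interval of the other 5 was that of MALAT1, -0.36 to 0.12, and the narrowest that of NONO, -0.07 to 0.12. A call against EV for Long and none for Short therefore does not show that the isoforms differ, and the comparisons share the EV libraries.

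The 9 genes differed in how much they moved with the passage. In EV, replicate 3 was 1.58 times the mean of replicates 1 and 2 for MATR3, 1.39 times for NUDT21 and 1.24 times for CPSF6, and in Long it was 2.17, 1.65 and 1.32 times. For NONO these ratios were 0.974 in EV and 1.01 in Long. MATR3 and NUDT21 rose and fell together over the 9 libraries (Pearson r = 0.99), as did MATR3 and CPSF6 (r = 0.90), whereas NEAT1 was less alike to either (r = 0.20 with MATR3, r = 0.19 with NUDT21). These correlations describe 9 libraries that share passages, transfections and base composition.

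MATR3 and NUDT21, which fell in Long, and CPSF6 had the lowest GC content of the 9 genes. The longest transcripts of NUDT21, CPSF6 and MATR3 have 37.0%, 37.5% and 37.6% GC, those of MALAT1 and NEAT1 42.0% and 44.1%, and those of PSPC1, NONO, SFPQ and RBM14 45.5%, 47.4%, 49.1% and 52.9%, against a median of 47.8% over the genes tested. With each library corrected for GC content the log2 difference of Long against EV became -0.30 for MATR3, -0.12 for NUDT21, -0.25 for MALAT1, 0.14 for SFPQ and 0.16 for CPSF6, which changed its sign. Whether base composition caused the differences was not tested.

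The wider set of paraspeckle proteins was described with a list of 33 further genes, of which 32 matched and were tested. In Long 6 rose and 1 fell (21.9%, against 8.32% of all genes tested), with a median log2 difference of 0.10 against 0.039 for all genes. RBM3, a cold-inducible RNA-binding protein, rose from 148 ± 6.11 FPKM with EV to 186 ± 4.31 FPKM (SD, n = 3 each, log2 difference 0.32, limma adjusted p = 0.00916). HNRNPM, a splicing regulator, rose from 129 ± 16.9 FPKM with EV to 158 ± 14.0 FPKM (SD, n = 3 each, log2 difference 0.30, limma adjusted p = 0.00889). Both genes were higher in 3 of 3 pairs and still passed after the GC correction (limma adjusted p = 0.0444 and 0.0489), but not without the passage block (0.637 for each). RBM7, a subunit of a nuclear exosome adaptor, fell (log2 difference -0.35, limma adjusted p = 0.0228), and it did not pass after the GC correction (0.374) or without the passage block (0.716). In Short 0 of the 32 passed, against 0.0362% of all genes tested. RBM3 and HNRNPM were nevertheless higher than EV in 3 of 3 Short pairs (log2 differences 0.21 and 0.23, limma adjusted p = 0.110 for each). RBM7 was lower in 3 of 3 Short pairs (log2 difference -0.23, limma adjusted p = 0.135). How the rises in Long depend on scaling was not tested for this list or for those below. Over all genes tested, 275 rose in Long, against 57 with TPM and 112 with median ratio scaling.

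Of 17 cleavage and polyadenylation factors, the machinery in which CPSF6 and NUDT21 act, 2 fell and 0 rose in Long (11.8%, against 8.32% of all genes tested), a share near that of all genes. PAPOLA, a poly(A) polymerase, had 65.9, 66.3 and 96.9 FPKM with EV and 40.1, 36.0 and 85.7 FPKM with Long (log2 difference -0.58, limma adjusted p = 0.0121). RBBP6 was at 19.1, 20.1 and 28.6 FPKM in EV and at 11.1, 13.6 and 24.4 FPKM in Long (log2 difference -0.49, limma adjusted p = 0.0118). Both had their highest values in replicate 3, as MATR3 and NUDT21 did, and neither passed without the passage block (0.667 and 0.678). After the GC correction PAPOLA did not pass (0.0521) and RBBP6 did (0.0444). In Short both were also lower than EV in 3 of 3 pairs (log2 differences -0.25 and -0.21, limma adjusted p = 0.196 and 0.205).

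Of 14 genes of nuclear retention and export of duplex RNA, 2 rose and 2 fell in Long (28.6%, against 8.32% of all genes tested). TPR, a protein of the nuclear pore basket, fell from 39.5 ± 9.93 to 20.7 ± 14.8 FPKM (SD, n = 3 each, log2 difference -1.08, limma adjusted p = 0.0106). SKIV2L2, the exosome helicase MTR4, fell from 41.6 ± 8.29 to 28.0 ± 14.0 FPKM (SD, n = 3 each, log2 difference -0.64, limma adjusted p = 0.0128). The Long replicates were 11.5, 12.7 and 37.8 FPKM for TPR and 19.4, 20.3 and 44.2 FPKM for SKIV2L2, with replicate 3 within the EV range. Their longest transcripts have 39.9% and 38.6% GC. PRMT1, an arginine methyltransferase, rose by 0.19 on the log2 scale (limma adjusted p = 0.0272). None of these 3 genes passed after the GC correction (0.0512 to 0.132) or without the passage block (0.637 for each). Short differed from EV in the same directions, in 3 of 3 pairs for each gene. The log2 differences were -0.62 for TPR, -0.30 for SKIV2L2 and 0.19 for PRMT1 (limma adjusted p = 0.120, 0.178 and 0.110).

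Of 16 nuclear speckle proteins, 2 rose and 1 fell in Long (18.8%, against 8.32% of all genes tested). The speckle protein BCLAF1 was at 92.7, 95.3 and 158 FPKM in EV and at 41.4, 48.5 and 135 FPKM in Long (log2 difference -0.78, limma adjusted p = 0.0111). The splicing factors SF3A1 and PRPF8 rose by 0.21 each (limma adjusted p = 0.0328 and 0.0221). None of the 3 passed after the GC correction (0.0670 to 0.0869) or without the passage block (0.637 to 0.670). Short differed from EV in the same directions, in 3 of 3 pairs for each of them. The log2 differences were -0.28 for BCLAF1, 0.25 for SF3A1 and 0.20 for PRPF8 (limma adjusted p = 0.265, 0.110 and 0.110). Of 10 other long noncoding RNAs tested, 0 passed in Long or in Short with limma, against 8.32% and 0.0362% of all genes tested. With 10 genes, a count of 0 is near both shares. The most abundant of these, GAS5, was at 168 ± 20.6 FPKM in EV and 170 ± 18.4 FPKM in Long, and SNHG1 was at 108 ± 7.88 and 107 ± 8.20 FPKM (SD, n = 3 each).

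The genes most like NEAT1 over the 9 libraries were CROCCP2 (r = 0.950), LTB4R2 (r = 0.941) and ASMTL-AS1 (r = 0.938), by Pearson correlation of log2(FPKM + 1) among the genes tested. Each of them was lowest in Short replicate 1, as NEAT1 was, at 15.3 FPKM for CROCCP2, 2.18 FPKM for LTB4R2 and 8.12 FPKM for ASMTL-AS1. Those most like MALAT1 were ZC2HC1A (r = 0.982), LYST (r = 0.978) and RIOK2 (r = 0.978). RIOK2, for example, was at 16.3, 16.6 and 17.4 FPKM in EV and at 8.43, 6.71 and 15.2 FPKM in Long, low in replicates 1 and 2 and near EV in replicate 3. All of these genes were picked for likeness over the same 9 libraries, so the shared low values follow from the choice.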

How the data were processed

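RNA-seq was performed on 9 poly(A) libraries of HEK293 cells, grouped by the sample titles. TopHat (version 1.4.1) was the aligner the authors used, on stranded read pairs, with the Ensembl transcript set as the first target and hg19 as the next. Cufflinks is named in the submitters' processing notes. The deposited values are FPKM, given for each Ensembl gene in each library. The Ensembl release and the strand setting behind the FPKM are not given in the sources used here. FPKM falls when other transcripts take more of a library. Sums of FPKM were 517170 to 541348 for EV, 533531 to 589535 for Short and 544461 to 567585 for Long. Every Long sum was thus above every EV sum. Counts were not used here, so no detection limits were computed.

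Symbols came from GENCODE (release lifted to GRCh37), which named 97.1% of the 13801 genes tested. The members and lists were chosen with earlier results of these data known. limma (version 3.58.1, R version 4.3.3, lmFit and eBayes with trend) was run across all genes on log2(FPKM + 1), with the 3 groups and a block for the replicate number, and tested on simulated data. The change added there was larger than any log2 difference of the 9 genes, so the simulation does not gauge calls of their size. The block was used because the study's methods repeat the transfections in different passages. Same-numbered libraries deviated together (correlation 0.33 to 0.81 over 9 pairs, against -0.63 to 0.37 over 18 pairs with different numbers). Values were centred within each group first, which lowers the correlation of different numbers. The sample titles do not state that equal numbers are the same passage. Named genes were the 9 members, ADARB1, from each list up to 4 genes with the largest difference among those passing in Long (or the 2 most abundant), and the 3 genes most correlated with NEAT1 and MALAT1. Some genes that this rule names are not reported here. The lists were described by counts. GC content was that of the longest transcript. The GC correction subtracted a loess curve (span 0.3) of each library's deviation from the mean of the libraries. Of the listed genes TAF15, KCNQ1OT1, LINC00657, NEFL, LHX1 and PECAM1 had no matched identifier and were not analysed here.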

Additional observations from a re-analysis of the deposited data

How the results depend on the processing

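With Long against EV, 3 of the 9 genes passed. The count was 0 without the replicate block, 0 with no filter on low values, 0 with the GC correction and 0 with a GC correction by each library's own curve (chosen after seeing the data), and 0 to 3 when each replicate was left out in turn. Without replicate 3 the 3 genes were MALAT1, MATR3 and NUDT21, all lower. For Short against EV and Long against Short 0 of the 9 passed in every alternative run.

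Over all genes, Long against EV gave 1148 with the replicate block and 2 without it, 12 with no filter, 237 and 319 with the GC corrections, and 2 to 1031 with a replicate left out (2 without replicate 1, 100 without replicate 2). Short against EV gave 5, with 2 without the block, 16 with no filter, 3 with either GC correction, and 2 to 59 with a replicate left out. Long against Short gave 1, with 0 without the block, 12 with no filter, and 0 to 9 with a replicate left out.

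Log2 differences that changed sign were at most 0.18 in size after the change. For Short against EV they were SFPQ with TPM (-0.0024), CPSF6 with the GC corrections (0.08 and 0.13) and NUDT21 with each library's own curve (0.01). For Long against EV they were NEAT1 with TPM (-0.05), with the median ratio (-0.02) and without replicate 3 (-0.00066, leaving 1 replicate out giving up to 0.04), and CPSF6 with the GC corrections (0.16 and 0.18). For Long against Short they were NONO (-0.02) and PSPC1 (-0.0017) with each library's own curve, NONO without replicate 3 (-0.0067, range to 0.06), PSPC1 without replicate 2 (-0.02, range to 0.07), CPSF6 with the GC corrections (0.09 and 0.05) and CPSF6 without replicate 1 (0.003, range from -0.03). None of these passed before or after. Adjusted p-values are from limma. The cause of the lost calls was not tested.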
